A study of Mus musculus with 45 samples.

Results

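The baseline described here is the gene expression of the untreated wild-type mouse distal colon, the last stretch of large intestine before the rectum. It is made up of the 8 libraries of the first cohort that carry the control title, out of 45 libraries in the series, and they were taken as a group by that title and by no measured value. The labels give wild-type genotype, distal colon tissue and no treatment, from poly(A)-enriched messenger RNA. They name no strain, sex, age or animal, so the libraries may or may not come from separate mice, and the errors and p-values given describe library-to-library spread, which may be technical. For comparison, 10 libraries of the same cohort from Il10 knockout mice given vehicle were used. Il10 encodes interleukin 10, which restrains intestinal inflammation, and because the wild-type mice received no vehicle, the effects of deletion and vehicle cannot be told apart. Libraries are numbered 1 to 8 in deposited order, and the labels do not say what that order stands for.

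The wall of the colon has an inner epithelium folded into crypts, in which absorptive colonocytes take up water and salt and goblet cells secrete mucus. Below it lie connective tissue with immune cells, isolated lymphoid follicles of B cells, and the muscle layers with the enteric nervous system, and fat, serosal cells and blood are attached outside. RNA from a piece of the whole wall mixes all of these, so fewer cells of a type and less RNA per cell cannot be told apart. The level of a gene is given in TPM (the share of a library's transcripts, corrected for their length and scaled to a fixed total), and the score of a marker list is the mean of log2(TPM + 1) over its members with a mean of at least 1 TPM.

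The wild-type libraries held 22682491 to 26410857 counts, and 14229 to 14764 genes reached 1 TPM. At these depths a count of 0 allows up to 0.114 to 0.132 CPM (the share of a library's counts on the same scale), a limit that covers counting error only. Il10 was at 0 TPM in all 10 knockout libraries and between 0 and 0.21 TPM in wild type, where 4 of 8 libraries held any count, so a single library cannot be checked by this gene. Xist, expressed from the inactive X chromosome of females, stayed at or below 0.04 TPM in the wild-type libraries, and the Y-linked Ddx3y had at least 14.7 TPM in each of them. Library 5 stood apart from the other 7 in genes of the exocrine pancreas and the liver, and values that rest on it are given with and without it below.

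Mucus and surface defence genes led the nuclear protein-coding transcripts. Zg16 (ENSMUSG00000049350, GRCm38 chromosome 7, 127050156 to 127087328), which encodes a goblet cell lectin that keeps bacteria off the epithelium, had the highest mean, 12087 ± 1419 TPM (SD, n = 8). Its lowest library was at 10727 TPM, its median at 11761 and its highest at 13630. Lypd8, which encodes a colonocyte surface protein that binds flagellated bacteria, averaged 8499 ± 1027 TPM, and Tff3, the goblet cell trefoil peptide, 7639 ± 940 TPM. The ribosomal protein gene Rps27 averaged 8980 ± 1444 TPM. For scale, the translation factor gene Eef1a1, active in every cell, averaged 3934 ± 128 TPM.

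The remaining leading genes fell into a few groups. Epithelial genes among the leading 30 included Phgr1 (5785 ± 928 TPM), Lgals4, a galectin of the apical membrane (4124 ± 228 TPM), and the keratins Krt8 (3800 ± 278 TPM) and Krt19 (2825 ± 283 TPM), which form the intermediate filaments of simple epithelium. The hormone precursor Guca2a, whose peptide guanylin regulates salt and water secretion, was at 3066 ± 441 TPM. Of the mucus proteins, Muc3, a membrane mucin, averaged 3043 ± 275 TPM and Fcgbp, a mucus-binding protein, 2908 ± 245 TPM. Fcgbp counts spread more widely, from 98486 in library 3 to 170919 in library 8, where its TPM were 2759 and 2896. Its steadiness in TPM therefore depends on the length correction. Saa1 (5709 ± 935 TPM) and Sprr2a2 (3212 ± 727 TPM) have near-identical neighbouring copies, so that the authors' counting could split their reads and their levels are uncertain.

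Sycn, which encodes syncollin, a zymogen granule protein best known from the pancreas, was among the 30 leading genes. It lay between 3856 and 5781 TPM in every wild-type library. Library 5, in which pancreatic enzymes were found, held 5294 TPM, inside the range of the others. Cela1, an elastase gene, was also present in every library but stood higher in library 5, with 311 to 410 TPM in the other 7 libraries and 1755 TPM in library 5. Clps, the colipase gene, did likewise, with 12.3 to 22.5 TPM in the other 7 and 1440 TPM in library 5.

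**Figure D1:**
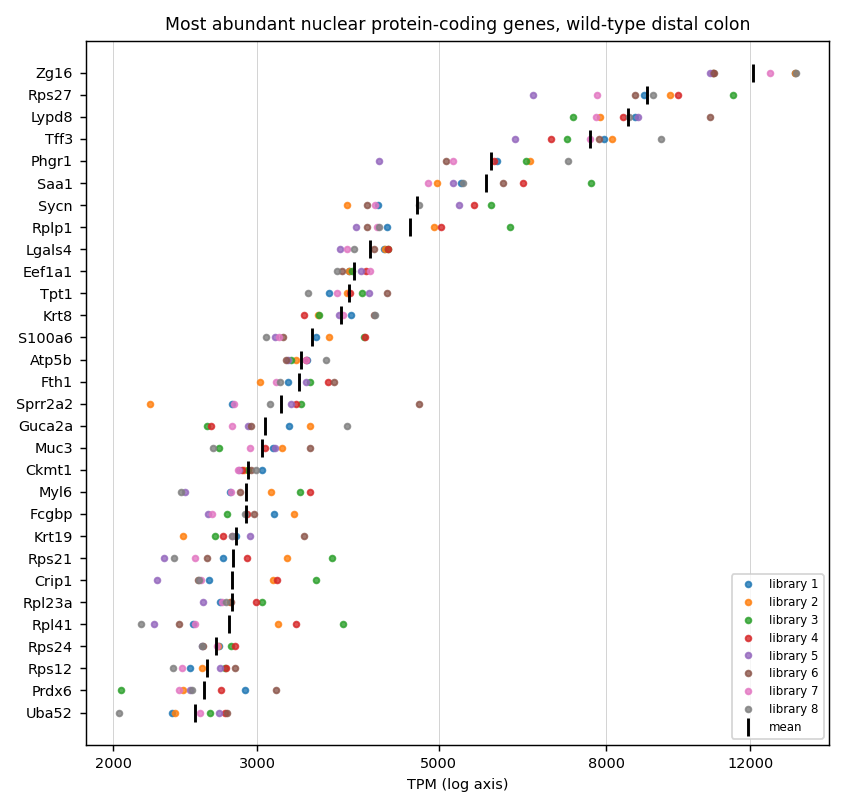
Level (TPM, log axis) of the 30 nuclear protein-coding genes with the highest mean in wild-type distal colon. Points are the 8 libraries and black bars their mean; Zg16 lies at 10727 to 13630 TPM, and Ckmt1 has the narrowest range, 2842 to 3038 TPM.

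The 30 leading genes together held 12.6 ± 0.567% of all TPM (SD, n = 8), and 230 genes of any kind held 50% of it. Ckmt1, a mitochondrial creatine kinase, varied least among the 30, with a coefficient of variation of 2.33%. Sprr2a2 varied most among them, with 22.6%. The 13 protein genes of the mitochondrial genome, which encode respiratory chain and ATP synthase subunits, held 10.4 ± 0.836% of TPM. Of these, mt-Co1 averaged 23432 ± 3049 TPM. Next came mt-Atp8 at 18970 ± 3650 TPM, from 897 to 1527 counts per library against 460806 to 662748 for mt-Co1. The level of mt-Atp8 therefore rests on the length correction. A further 5.55 ± 0.599% was assigned to 5 pseudogenes on chromosome 1 that are copies of mitochondrial DNA and can share its reads, among them Gm28661 with 17546 to 24493 TPM. The division of mitochondrial reads between the real genes and these copies is therefore uncertain. The 92 genes for ribosomal proteins held 9.86% to 13.2%.

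Colonocyte markers were all present, and their score varied by 0.43 between the lowest and the highest library (8.61 to 9.03). All 20 members had a mean above 1 TPM. Among transport genes, Car4, a carbonic anhydrase of the brush border, averaged 1184 ± 152 TPM and Aqp8, a water channel, 818 ± 203 TPM. Slc26a3, the chloride and bicarbonate exchanger of the colon, averaged 699 ± 113 TPM. Car1, the cytosolic carbonic anhydrase, varied by 2.19-fold, with 430 TPM in library 3 and 942 TPM in library 6.

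Goblet cell markers had a wider range of scores, 8.70 to 9.30. Muc2, the gel-forming mucin, lay between 1729 and 2858 TPM with a median of 2231 TPM. Clca1, a secreted mucus protease, lay between 1557 and 3443 TPM. Muc2 and Clca1 were highest in libraries 1, 2 and 8 and lowest in library 3. Retnlb, a bactericidal goblet cell peptide that inflammation induces, lay between 5.76 and 21.7 TPM, far under the other secreted goblet cell products.

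Hormone cells, tuft cells and crypt base cells were represented at lower levels. Pyy, which encodes peptide YY of the L cells of the distal gut, averaged 1019 ± 71.8 TPM, and Insl5, a hormone gene of the same cells, 383 ± 46.0 TPM. The hormone genes Cck and Nts were nearly absent, with Cck between 0.28 and 1.15 TPM and Nts at no more than 0.16 TPM. Of the tuft cell genes, Dclk1 averaged 3.59 ± 0.729 TPM while the regulator Pou2f3 never passed 0.55 TPM. Lgr5, the stem cell receptor, averaged 1.05 ± 0.534 TPM. Reg4, a lectin of the deep crypt secretory cells, averaged 495 ± 99.7 TPM.

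Dividing-cell genes differed between libraries. Top2a, the topoisomerase of dividing cells, had 42.5, 31.9, 36.4 and 33.5 TPM in libraries 5 to 8 and 22.3, 23.7, 18.7 and 22.1 TPM in libraries 1 to 4. The score of the 12 dividing-cell genes was 4.59 to 4.82 in libraries 5 to 8 and 4.09 to 4.33 in libraries 1 to 4, without overlap. The division was not confined to dividing-cell genes. The mitochondrial gene mt-Nd1 had 5844 to 6034 TPM in libraries 1 to 4 and 6834 to 7751 TPM in libraries 5 to 8. Likewise mt-Nd2, mt-Co1, mt-Nd4, mt-Nd5 and mt-Cytb divided without overlap, while the other mitochondrial protein genes overlapped. S100a6, a leading gene, was lower in libraries 5 to 8 (3073 to 3222 TPM) than in libraries 1 to 4 (3539 to 4057 TPM). This division was noticed in the values, the labels give nothing that separates those libraries, and it was not tested. Whether it reflects cell division was not tested.

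Smooth muscle genes had the highest summed TPM of the non-epithelial cell type lists, and their score varied by 1.18 in score, from 7.88 in library 8 to 9.07 in library 6. Tagln, an actin-bundling protein of contractile cells, had 1073, 1263, 1564, 1802, 1210, 1845, 1362 and 920 TPM in libraries 1 to 8. Actg2, the enteric smooth muscle actin, had 947, 1077, 1459, 1669, 1363, 2109, 1434 and 913 TPM in the same order. Myh11, the smooth muscle myosin heavy chain, lay between 208 TPM in library 8 and 700 TPM in library 4. All 3 genes were lowest in library 8 and highest in library 4 or 6. The 14 smooth muscle genes held 0.614% of TPM in library 8 and 1.33% in library 6.

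Many smooth muscle promoters carry the CArG box, the site of serum response factor. Of the 14 genes, 11 had a start site in the RefSeq promoter table (build GRCm38.p6), and Tagln, Actg2 and Myh11 had none. Only the exact form of 10 bases was searched, CC and GG around a run of A and T. Boxes with a mismatch were therefore not counted. In that form, 1 of those 11 windows held the CArG box in the 250 bases before the start, against 1.47% of all 32851 such windows, both strands covered. Other lists had matches as well, in 2 of 11 windows of enteric neuron and glia genes, 1 of 8 of B cell genes, 1 of 17 of colonocyte genes and 0 of 5 of goblet cell genes, so matches were not confined to muscle genes. The muscle gene was Myl9, the regulatory light chain of smooth muscle myosin (593 to 1325 TPM). Its window at chr2:156775214-156775463, plus strand, is shown with the box in capitals because it is the only exact match among the 11 muscle gene windows.
Myl9: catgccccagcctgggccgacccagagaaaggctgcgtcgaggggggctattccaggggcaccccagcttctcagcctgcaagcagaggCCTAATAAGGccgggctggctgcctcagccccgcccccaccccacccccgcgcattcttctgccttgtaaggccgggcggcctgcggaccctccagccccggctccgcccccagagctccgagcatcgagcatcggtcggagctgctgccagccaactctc
The match is a description of these letters only.

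Nerve and connective tissue genes followed the muscle genes across the libraries. The lists of the 10 relations tested were chosen with earlier results of these data known, which their p-values do not allow for. The smooth muscle score correlated with the score of enteric neurons and glia at r = 0.94 (exact permutation p = 0.00131, adjusted over 10 relations 0.00438; rho = 0.81, exact p = 0.0218, adjusted 0.0917; n = 8). With fibroblast genes it correlated at r = 0.92 (exact permutation p = 0.00231, adjusted 0.00577; rho = 0.76, exact p = 0.0368, adjusted 0.0917; n = 8). Leaving out libraries 8 and 6, which lay farthest from the median of the muscle score, gave r = 0.84 (exact p = 0.0583) and r = 0.83 (exact p = 0.0375) over 6 libraries. Vip, the peptide of inhibitory enteric neurons, ranged from 32.4 TPM in library 8 to 62.1 TPM in library 4, and Col3a1, a fibrillar collagen, from 147 TPM in library 1 to 290 TPM in library 7. Without library 8 alone, the adjusted p was 0.0569 for the nerve relation and 0.0893 for the fibroblast relation (exact permutation).

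Goblet cell genes ran the opposite way, at r = -0.83 with the muscle score (exact permutation p = 0.00709, adjusted 0.0142; rho = -0.79, exact p = 0.0279, adjusted 0.0917; n = 8) and r = -0.82 (exact p = 0.0333) without libraries 8 and 6. Without library 8 alone its adjusted p was 0.0956 and without library 4 alone 0.05 (exact permutation). The colonocyte relation did not pass (r = -0.50, exact permutation p = 0.212, adjusted 0.265; rho = -0.57, exact p = 0.151; n = 8). Neither did that of the list for interstitial cells of Cajal, the pacemaker cells of the gut (r = 0.26, exact permutation p = 0.547, adjusted 0.607; rho = 0.05, exact p = 0.935; n = 8). That relation depended on the unit, since on TMM-scaled CPM it gave r = 0.75 (exact permutation p = 0.0319, adjusted 0.0532; n = 8). The most abundant gene of that list, Ano1, is also expressed outside these cells and lay between 151 and 257 TPM, highest in library 8, where muscle genes were lowest. TPM sum to the same total in every library, so a larger share of one tissue lowers the others, and the part this plays in the goblet relation was not tested.

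**Figure D2:**
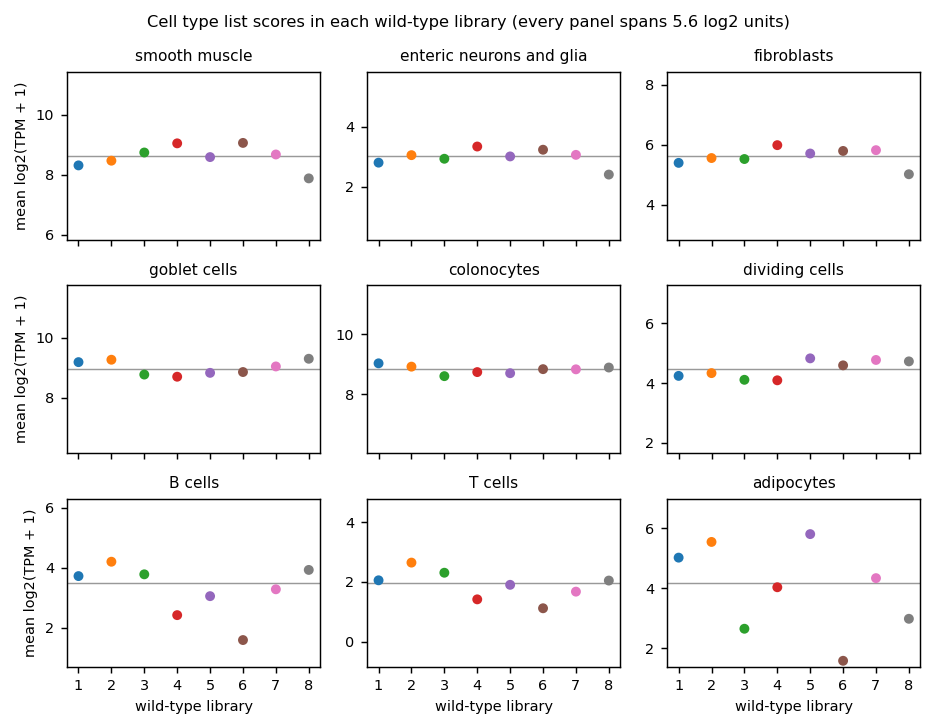
Score (mean log2(TPM + 1) over list members) of 9 marker lists in wild-type libraries 1 to 8, with the median of the 8 as a grey line and the same height of axis in every panel. Colonocyte scores lie within 8.61 to 9.03, while adipocyte scores reach from 1.58 in library 6 to 5.81 in library 5.

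B cell genes varied more than those of any other immune list, with scores of 1.58 in library 6, 2.42 in library 4 and up to 4.20 in library 2. Cd79a, a signalling chain of the B cell receptor, had 39.5, 58.0, 48.6, 17.1, 22.9, 5.19, 24.7 and 42.1 TPM in libraries 1 to 8, a range of 11.2-fold. Cr2, the complement receptor of B cells and follicular dendritic cells, had 1.63 TPM in library 6, a median of 13.4 TPM and 22.5 TPM in library 2. Libraries 6 and 4 were the lowest in both genes.

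Genes of the cells around follicles varied with them. T cell genes correlated with the B cell score at r = 0.93 (exact permutation p = 0.000397, adjusted 0.00397; rho = 0.90, exact p = 0.00456, adjusted 0.0456; n = 8), and at r = 0.82 (exact p = 0.0444) without libraries 6 and 4. The list of follicle chemokines and stroma correlated at r = 0.94 (exact permutation p = 0.00119, adjusted 0.00438; rho = 0.74, exact p = 0.0458, adjusted 0.0917; n = 8), and at r = 0.66 (exact p = 0.142) without those libraries. Cxcl13, which draws B cells into follicles, ranged from 12.7 TPM in library 6 to 38.5 TPM in library 2. Ccl21a, a chemokine of lymphatic vessels and T cell zones, ranged only from 95.5 to 164 TPM. The list for follicle-covering epithelium passed narrowly (r = 0.76, exact permutation p = 0.0296, adjusted 0.0493; rho = 0.67, exact p = 0.0831, adjusted 0.137; n = 8) and gave r = 0.38 (exact p = 0.472) without libraries 6 and 4. Leaving out any one of libraries 1, 2, 3, 4, 6 and 8 made it miss the threshold, with adjusted p from 0.0995 to 0.142 (exact permutation). Its member Gp2, a receptor of M cells that pancreatic acinar cells also make, had 86.3 TPM in library 5 and 6.63 to 22.3 TPM in the others.

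Plasma cell and macrophage genes were steadier. Igha, the constant chain of immunoglobulin A, averaged 752 ± 249 TPM and Jchain, which joins its dimers, 249 ± 55.5 TPM. All 13 macrophage and dendritic cell genes had a mean above 1 TPM, among them C1qa, a complement subunit of tissue macrophages, with 44.7 ± 9.66 TPM. Among 7 neutrophil genes, Ly6g had 236 ± 31.0 TPM while S100a8, S100a9 and Cxcr2 stayed at or below 2.49, 2.24 and 0.06 TPM, so the defining granulocyte genes were at or near 0 where Ly6g was not. Mast cell and eosinophil genes were sparse, with 2 of 11 at a mean of 1 TPM or more and the eosinophil peroxidase Epx at no more than 0.02 TPM.

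After the acinar and liver lists, fat genes had the widest range of scores, 1.58 to 5.81. Car3, a carbonic anhydrase abundant in adipocytes, had 106, 148, 5.39, 31.4, 253, 0, 43.7 and 11.7 TPM in libraries 1 to 8. Cfd, the adipokine adipsin, had 159, 234, 8.85, 47.1, 219, 0, 73.2 and 17.2 TPM, and Adipoq, adiponectin, had 0 TPM in library 6 and 36.0 TPM in library 5. Libraries 5, 2 and 1 were high and library 6 was listed at 0 in all 3 genes. Ucp1, the defining gene of brown fat, was at 0 in all 8 libraries. The relation of the fat score with endothelial genes did not pass (r = 0.59, exact permutation p = 0.121, adjusted 0.172; rho = 0.64, exact p = 0.0962, adjusted 0.137; n = 8), and it gave r = 0.45 (exact p = 0.371) without libraries 6 and 5. Upk3b, a gene of the serosal mesothelium chosen here after its values were seen, ranged from 0.99 TPM in library 3 to 9.64 TPM in library 5.

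Globin genes were high in other libraries than fat genes. Hbb-bs, an adult beta-globin, had 240 TPM in library 4 and 153 TPM in library 7, against 12.1 to 49.5 TPM in the other 6. Hba-a2, an alpha-globin with a near-identical neighbour, had 237 and 179 TPM in those libraries and 10.6 to 44.3 TPM in the rest.

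Library 5 carried RNA of the pancreas and liver. Ctrb1, which encodes the digestive enzyme precursor chymotrypsinogen, had 4335 TPM there and no more than 0.29 TPM in any other wild-type library. Pnlip, pancreatic lipase, had 1645 TPM there and at most 0.19 TPM elsewhere. In library 5 the acinar list held 2.09% of TPM, against 0.0327% to 0.0432% in the other 7. Liver genes were present in it at a lower level, with albumin (Alb) at 218 TPM against 0.68 to 2.32 TPM, and the fibrinogen genes Fga, Fgb and Fgg at 7.23 to 13.7 TPM against no more than 0.04 TPM. Reads of the amylase and trypsin families come from near-identical copies and cannot be assigned to single members.

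Wild type was not alone in the acinar genes. Among the 10 knockout vehicle libraries, 5 had a summed level above 100 TPM over 15 acinar genes (Cela1 and Clps left out), at 104 to 26746 TPM. The other 5 knockout libraries had 2.82 to 6.38 TPM, against 17738 TPM in wild-type library 5 and 2.43 to 5.15 TPM in the other wild-type libraries. The limit of 100 TPM was set after the values were seen.

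**Figure D3:**
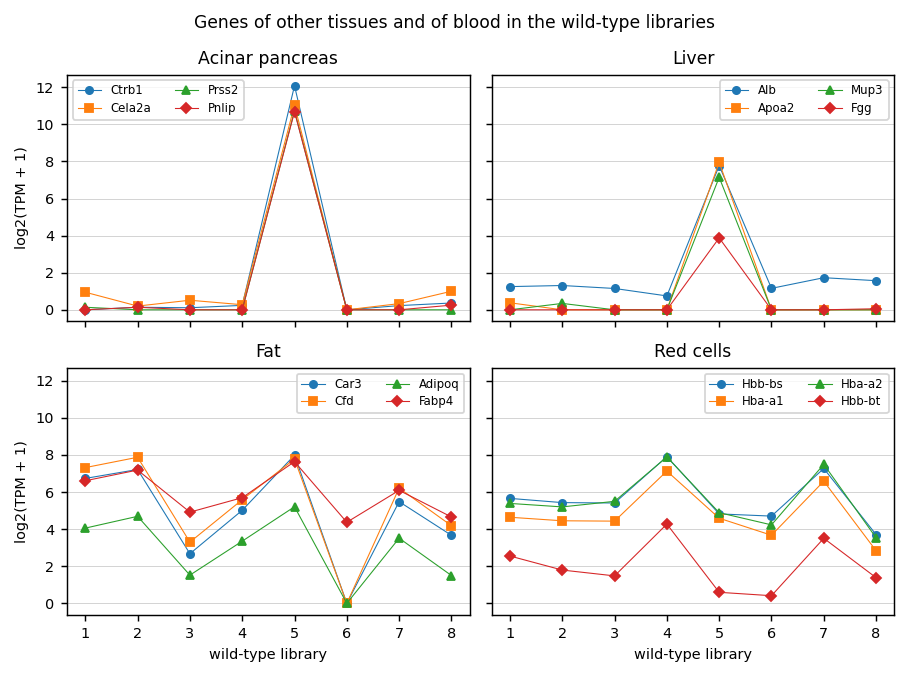
Level, as log2(TPM + 1), of 4 genes each of the exocrine pancreas, liver, fat and red cells in wild-type libraries 1 to 8, with lines only to guide the eye. Acinar and liver genes stand out in library 5, fat genes are at 0 or lowest in library 6, and globins are highest in libraries 4 and 7.

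Other tissues that border the gut were absent or nearly so. All 8 genes of the male accessory glands were at 0 in every wild-type library, and the 8 stomach genes summed to at most 0.20 TPM. Of the stratified squamous genes, Trp63, the master regulator of that epithelium, reached 0.04 TPM and Krt5 0.26 TPM, while Krt14 had 1.58 to 5.04 TPM. Fast skeletal muscle myosin Myh4 reached 0.01 TPM, and Ckm, a creatine kinase found in several muscle types, had at least 16.5 TPM in every library.

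Region markers were measured to check the labelled tissue. Cdx2, an intestinal master regulator, averaged 62.4 ± 7.45 TPM. The small intestinal disaccharidases Sis and Lct stayed at or below 0.02 and 0.07 TPM, and the 5 Paneth cell defensins of the list were at 0 in all 8 libraries. Some genes best known from the small intestine were nonetheless present. The bile acid transporter Slc10a2 had 22.1 ± 3.91 TPM, the glucose transporter Slc5a1 40.7 ± 4.17 TPM and the retinol-binding protein gene Rbp2 135 ± 15.4 TPM.

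Hox genes, whose expressed members mark position from head to tail, had more TPM in posterior than in anterior members. The 16 genes of paralog groups 9 to 13 summed to 406 to 582 TPM per library, with 11 at a mean of at least 1 TPM. The 23 genes of groups 1 to 8 summed to 90.3 to 106 TPM, with 12 at that mean. Hoxb13, the last member of the HoxB cluster, was the most abundant at 292 ± 22.3 TPM and ranged only from 244 to 312 TPM. Of the HoxA cluster, Hoxa10 averaged 44.8 ± 4.90, Hoxa13 34.8 ± 4.14 and Hoxa9 34.2 ± 4.90 TPM. Hoxc10 to Hoxc13 were at 0 in all 8 libraries, Hoxc9 reached 0.03 TPM, and the anterior HoxC gene Hoxc4 reached 1.06 TPM. The posterior HoxC genes were thus absent or nearly so where the HoxA and HoxB genes named were not.

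The posterior HoxD genes differed from the others in their spread. Hoxd13 had 16.4, 18.9, 57.0, 82.4, 62.6, 95.2, 51.7 and 31.8 TPM in libraries 1 to 8, a range of 5.81-fold. Hoxd10 (5.36-fold) and Hoxd11 (5.09-fold) ranged as widely, while Hoxa13 ranged over 1.38-fold and Hoxb13 over 1.28-fold. Hoxd10 correlated with Hoxd13 at r = 0.93 and Hoxd11 at r = 0.90 over the 8 libraries, Hoxd12, with a 5.45-fold range, at r = 0.68 and Hoxb13 at r = 0.80, on log2(TPM + 1) values that share depth and tissue share. The smooth muscle score, which was high in the same libraries 4 and 6, correlated with Hoxd13 at r = 0.74 and with Hoxd12 at r = 0.90, and its part in the Hoxd spread was not tested.

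A set of epithelial genes was high where Hoxd13 was low. Mptx1, a pentraxin of intestinal epithelium, had 247, 385, 91.8, 43.2, 27.3, 8.22, 75.4 and 173 TPM in libraries 1 to 8. Slc9a3, the sodium and proton exchanger of the brush border, had 51.3, 53.3 and 37.6 TPM in libraries 1, 2 and 8 and 14.6 to 28.9 TPM in the others. Isx, a homeobox gene of the intestine, lay between 0.76 TPM in library 6 and 8.13 TPM in library 1. Libraries 1, 2 and 8 were the highest and library 6 the lowest or among the lowest in all 3. Their correlations with Hoxd13 were r = -0.91 for Mptx1, r = -0.95 for Slc9a3 and r = -0.98 for Isx over 8 libraries, and r = -0.70, r = -0.73 and r = -0.74 with the smooth muscle score. Other genes of the set followed the muscle score at least as closely, Fabp2, a fatty acid binding protein of enterocytes, at r = -0.90 with Hoxd13 and r = -0.94 with the muscle score, and B4galnt2, a glycosyltransferase gene, at r = -0.70 and r = -0.75. These genes were picked for this pattern after their values were seen, so they are a description.

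**Figure D4:**
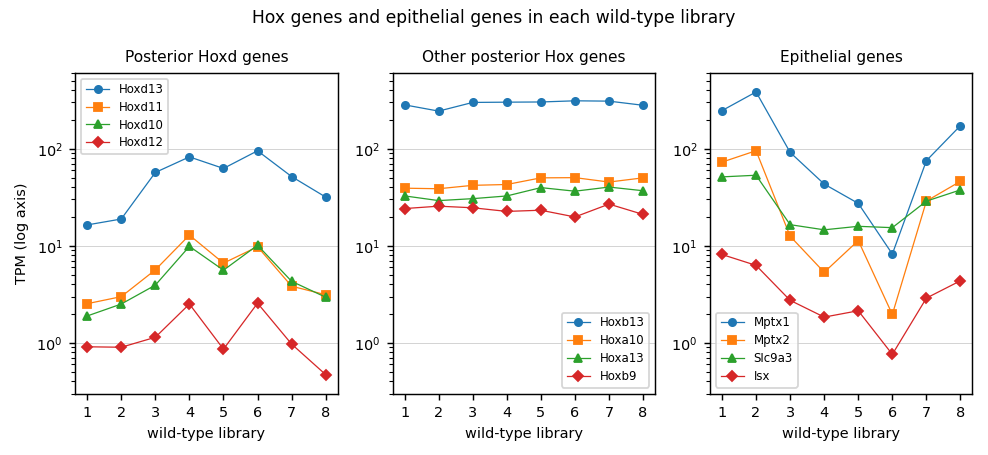
Level (TPM, log axis) of posterior Hoxd genes, other posterior Hox genes and epithelial genes in wild-type libraries 1 to 8, with lines only to guide the eye. Hoxd13 runs from 16.4 to 95.2 TPM and Mptx1 from 8.22 to 385 TPM in the opposite direction, while Hoxb13 stays within 244 to 312 TPM.

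Across all genes, variation was measured as the SD of log2(CPM + 1) after TMM scaling over the 8 libraries, for the 14805 genes with a mean of at least 1 CPM. The median SD was 0.18, and 58.5% of genes had an SD under 0.2. An SD above 1 was reached by 118 genes, or by 52 without library 5. The biological coefficient of variation estimated by edgeR was 0.296 in knockout vehicle libraries and 0.170 in wild type, or 0.166 without library 5.

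Of the 40 most variable genes, 37 were highest in library 5, and 16 were on the acinar and 6 on the liver list. Ctrb1 led them with an SD of 3.85 and the last of the 40, Serpina1c, had 1.87, next to 1.85 for the gene just outside. Without library 5 the list of 40 shared 6 genes with it. It then held 6 fat genes, 4 B cell genes, 3 globins and 15 pseudogenes, predicted genes or noncoding RNAs. It was led by the noncoding RNA AY036118, with 0 CPM in libraries 6 and 8 and 25.9 to 90.2 CPM in the rest, followed by the pseudogene Gm13841. Such loci resemble other transcripts, and their values depend on how reads are shared out.

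For each library, the 5 genes farthest above the median of the others were taken. Zbed6, a transcription factor gene that lies within another gene and can share its reads, was among them in libraries 1, 2 and 8, at 5.51, 7.55 and 4.85 CPM, as were Mptx2 and Itln1. Apoa4, an apolipoprotein of absorbing enterocytes, stood out in library 1 at 4.97 CPM and in library 2 at 8.71 CPM, against at most 1.87 CPM in the others. In libraries 1, 2 and 8, Itln1, an intelectin of the small bowel, had 6.39, 11.2 and 4.74 CPM, against a highest value of 0.807 CPM in the other 5. Globins and immunoglobulin V segments stood out in libraries 4 and 7, acinar enzymes in library 5, and pseudogenes, predicted genes or noncoding RNAs in libraries 3 and 6.

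The steadiest genes were taken from the 4431 with a mean of at least 50 CPM. Cct4, a chaperonin subunit, had the smallest SD, 0.026, with 101 to 119 TPM. Sod2, the mitochondrial superoxide dismutase, had 0.028, and Tspan3, a tetraspanin, 0.028. The vesicle coat subunits Ap2a1 and Ap3d1 had 0.029 and 0.031.

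The first principal component of these values held 37.7% of the variance and separated library 5, at 55.4, from the others, at -10.2 to -4.98. The next component held 23.8% and ran from libraries 8, 1 and 2 (29.3, 11.8 and 11.3) to libraries 6 and 4 (-21.8 and -23.5). Without library 5 this became the first component, with 38.1%. Its leading genes were Mptx2, Mptx1, fat genes and B cell genes at one end and Hoxd13, Hoxd11, Hoxd10 and globins at the other.

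Clock and stress genes were measured because time of day and handling can alter them. Arntl, the core clock activator, averaged 41.5 ± 4.54 TPM, and Dbp, an output gene of the clock that cycles strongly in most tissues, ranged from 2.55 TPM in library 5 to 8.08 TPM in library 1. The 2 clock lists did not correlate (r = 0.10, exact permutation p = 0.835, adjusted 0.835; rho = 0.05, exact p = 0.935; n = 8). Heat shock genes were lowest in library 8, where Hspa1b, an inducible chaperone, had 36.0 TPM, against 56.5 to 137 TPM in the others. Immediate early genes had scores within 4.59 to 4.81, and type I interferon response genes within 2.58 to 3.10.

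The knockout vehicle libraries place this baseline in context. In edgeR, 8113 of 16435 genes were called at an adjusted p under 0.05, which is 49.4% of those tested, 25.2% higher and 24.1% lower in knockout, with a median log2 fold change of -0.01 over all genes. With no scaling beyond the total count, the median was -0.16 and 32.8% of calls were higher, against 51.1% in the main fit. Of the 30 most abundant wild-type genes, 9 were called higher, 5 lower and 16 not called, a share near that of all genes. Changes below are from the main fit.

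Some surface and mucus genes were called higher and others were not. Tff3 (log2 fold change -0.25, edgeR adjusted p = 0.0864), Muc3 (-0.24, edgeR adjusted p = 0.0573) and Guca2a (-0.51, edgeR adjusted p = 0.117) were not called. Car1 was lower, at -1.06 to -0.78 with each library left out (edgeR adjusted p = 0.00192 to 0.0240). Lypd8 averaged 11339 ± 2045 TPM in knockout and 8499 ± 1027 TPM in wild type, a log2 fold change of 0.62 ± 0.13 (SE, edgeR adjusted p = 0.000941). Krt8 averaged 5533 ± 1144 TPM in knockout and 3800 ± 278 TPM in wild type (log2 fold change 0.75 ± 0.14, edgeR adjusted p = 0.000296). The groups overlapped in both genes, Lypd8 at 8518 to 15784 TPM in knockout and 7296 to 10715 TPM in wild type, and Krt8 at 3603 to 7124 TPM in knockout and 3426 to 4176 TPM in wild type. Zg16 averaged 13607 ± 1940 TPM in knockout and 12087 ± 1419 TPM in wild type (0.36 ± 0.10, edgeR adjusted p = 0.00515), and with no scaling beyond the total its edgeR adjusted p was 0.0599. Krt20, a keratin of the mature surface epithelium, averaged 1448 ± 661 TPM in knockout and 395 ± 48.4 TPM in wild type (2.10 ± 0.28, edgeR adjusted p = 3.15e-05), and no knockout library, from 483 TPM up, overlapped the wild-type ones, which reached 478 TPM.

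Sycn, among the leading wild-type genes, averaged 1191 ± 1121 TPM in knockout and 4705 ± 736 TPM in wild type, a log2 fold change of -1.85 ± 0.52 (edgeR adjusted p = 0.00765). The knockout libraries lay between 100 and 3400 TPM, and the groups did not overlap. Prdx6, a peroxiredoxin, averaged 1203 ± 482 TPM in knockout and 2580 ± 340 TPM in wild type (-0.86 ± 0.17, edgeR adjusted p = 0.000767). Phgr1 was at 3628 ± 1299 TPM in knockout and 5785 ± 928 TPM in wild type (-0.50 ± 0.17, edgeR adjusted p = 0.0241).

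By list, 11 of 20 colonocyte genes were called higher and 3 lower, and 8 of 12 goblet cell genes higher and none lower. Among all tested genes, 25.2% were called higher and 24.1% lower. All 14 smooth muscle genes were called lower, with a median log2 fold change of -1.29. Other genes of the wall were called lower with them, 13 of 14 fibroblast genes (median -0.95) and 10 of 15 enteric neuron and glia genes (median -1.17), with none higher in either list. Immune lists differed in how many genes were called higher. The numbers were 14 of 14 for T cells, 8 of 9 for plasma cells and 11 of 13 for macrophages and dendritic cells, with none lower. For B cells 6 of 12 genes were called higher and none lower. Of the 6 follicle chemokine and stroma genes tested, 4 were called higher and 1 lower. What part these shifts have in the values of single genes was not tested. Of the muscle genes, Actg2, at 534 ± 457 TPM in knockout and 1371 ± 400 TPM in wild type (-1.23 ± 0.45, edgeR adjusted p = 0.0313), had an adjusted p of 0.0629 without wild-type library 6, 0.0537 without wild-type library 4, 0.0516 without knockout library 4 and 0.0527 without knockout library 10. Of the 11 tested posterior Hox genes, 6 were called lower and none higher (median -0.68). Of the 17 tested anterior ones, also 6 were called lower and none higher (median -0.68), against 24.1% lower among all tested genes. Hoxb13 averaged 161 ± 49.9 TPM in knockout (69.2 to 226) and 292 ± 22.3 TPM in wild type (244 to 312), without overlap (-0.68 ± 0.16, edgeR adjusted p = 0.00202). Hoxd13 averaged 11.4 ± 13.9 TPM in knockout and 52.0 ± 28.6 TPM in wild type, with overlap (-2.08 ± 0.73, edgeR adjusted p = 0.0259), with an adjusted p of 0.0501 without wild-type library 6.

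Whether the knockout libraries spread more than the wild-type ones was tested for 8 lists, by exact permutation of the absolute deviations from each group's median. These lists too were chosen with earlier results of these data known, which the p-values do not allow for. The smooth muscle score lay between 4.51 and 8.66 in knockout and between 7.88 and 9.07 in wild type. Its mean deviation was 1.03 in knockout and 0.29 in wild type, a difference of 0.75 (two-sided exact permutation p = 0.0156, adjusted over 8 lists 0.101). The nerve and glia score deviated by 0.61 in knockout and 0.19 in wild type (exact permutation p = 0.0254, adjusted 0.101). Neither passed after adjustment, and the other 6 lists had adjusted p = 0.875 (exact permutation). The fat and B cell scores had deviations of 0.89 and 0.56 in knockout and of 1.18 and 0.66 in wild type.

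**Figure D5:**
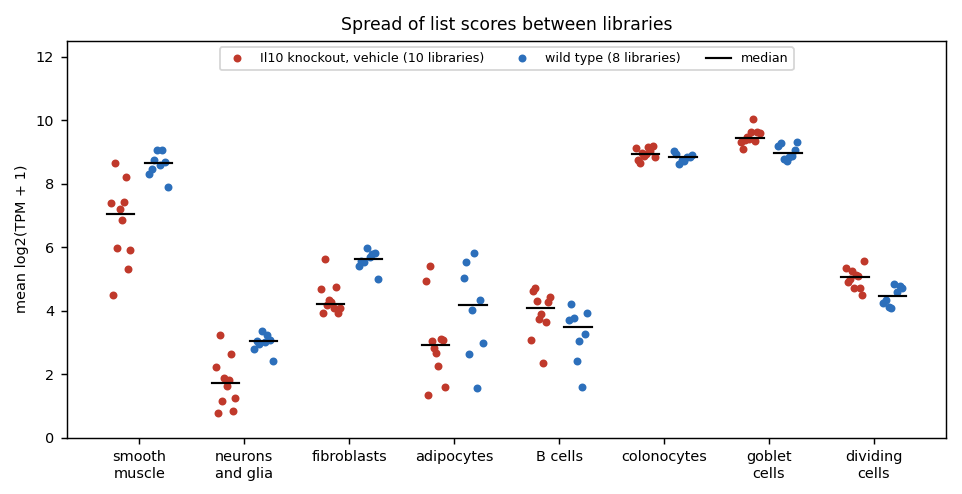
Score (mean log2(TPM + 1) over list members) of 8 marker lists in the 10 knockout vehicle libraries (left of each pair) and the 8 wild-type libraries (right), with medians as bars. Knockout muscle scores reach down to 4.51, against 7.88 in wild type, while fat scores run from 1.36 to 5.42 in knockout and from 1.58 to 5.81 in wild type.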

How the data were processed

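The mouse build mm10 and the tools RSEM 1.3.3, STAR 2.7.8a, DESeq2 1.30.1 and cutadapt 3.7 are named, without roles, per the submitters' processing notes. The authors deposited estimated counts per gene, not normalized, of which 17.6% of values above 0 were not whole. The authors also deposited TPM for the same genes and libraries. The sources used here do not state the gene annotation, the strandedness or how reads with several matches were counted. Of 50600 identifiers, 50376 matched GENCODE M21, which gave symbols and coordinates (GRCm38), and 224 did not.

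Levels, shares and scores come from TPM. Estimated counts were rounded and tested with edgeR 4.0.16 (quasi-likelihood, robust, TMM scaling, default filter, Benjamini-Hochberg adjustment, R 4.3.3), and the SE is the log2 fold change divided by the root of F. limma 3.58.1 (voom) and DESeq2 1.42.0 served as alternatives. The edgeR and SD steps were tested on simulated data. Relations were tested over all 40320 pairings of 8 libraries, spread over 43758 arrangements. No 2 libraries of a group agreed within sampling noise (lowest chi-square per degree of freedom 8.12).

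The text names the 30 highest nuclear protein-coding genes, the 40 largest and 10 smallest SDs, the 5 genes farthest above the other libraries in each library, leading or absent list members, Hox genes and Il10. The libraries, the 42 lists and 2 further lists (mesothelium, epithelial genes opposite to Hoxd13) were chosen with earlier results of these data known. One library with conflicting labels entered nothing. Intervals and limits cover counting error only.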

Additional observations from a re-analysis of the deposited data

Results flagged for a closer look

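A library was singled out where its gap to the nearest other library exceeded the Dixon 95% limit for the whole range of its group (0.526 for 8 libraries, 0.466 for 10). Chance singles out about 1 in 20 groups of values, and 8 of 96 groups were singled out here. The groups were not independent, since the acinar and liver lists entered both as a score and as a share of TPM.

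Library 5 of the wild type accounted for 4 of them. Its acinar score was 9.88 against a median of 0.97, and its liver score was 6.01 against a median of 1.29. The acinar list held 2.09% of its TPM and the liver list 0.111%. Library 6 of the wild type accounted for 3, with 10715 TPM of Lypd8 (median 8455), 4733 TPM of Sprr2a2 (median 3202) and an immediate early score of 4.81 (median 4.66). The same library had the lowest fat and B cell scores and the highest muscle score, and whether these values belong together was not tested.

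Among the knockout vehicle libraries, library 3 had a fibroblast score of 5.62 against a median of 4.22. It was the only one of the 10 knockout libraries inside the wild-type range of that score, 5.01 to 5.98.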

How the results depend on the processing

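No paired analysis was possible because the labels number the libraries singly and give the groups no shared numbers. The 30 leading genes held 12.6% of TPM, or 7.70% when chosen by CPM, which favours long transcripts and shared 12 of the 30 genes, and 12.6% to 12.8% with each library left out. The count of genes with an SD above 1, 118, was 223 with a pseudocount of 0.1, 50 with a minimum mean of 10 CPM, 351 on log2(TPM + 1), and 52 to 132 with each library left out, the lowest without library 5. Total-count scaling, RLE scaling and a minimum of 0.1 CPM gave 118 to 123.

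With each library left out, r was 0.87 to 0.97 for muscle with nerve, 0.80 to 0.95 for muscle with fibroblast, -0.88 to -0.77 for muscle with goblet, -0.21 to 0.42 for muscle with pacemaker (0.75 on TMM-scaled CPM, not passing after adjustment), 0.69 to 0.85 for B cell with follicle epithelium and -0.12 to 0.37 for the clock lists. Muscle with goblet no longer passed with the median over members (r = -0.60, adjusted over 10 relations) or without library 4 or 8. B cell with follicle epithelium no longer passed on TMM-scaled CPM (r = 0.72), with the median over members (r = 0.73) or without library 1, 2, 3, 4, 6 or 8. By rank correlation, only B cell with T cell passed after adjustment.

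For the difference in mean deviation, knockout minus wild type, no list passed under any setting. Signs turned for colonocytes (-0.023, median over members) and goblet cells (0.028 on TMM-scaled CPM, 0.090 with the median over members, -0.068 to 0.015 with each library left out). Left-out libraries also gave -0.00247 to 0.185 for fibroblasts, -0.25 to 0.11 for B cells and -0.049 to 0.022 for dividing cells. The numbers of genes called higher and lower in knockout stayed within 1.5 times of the main ones in every setting, at 3774 to 4427 higher and 3425 to 4675 lower with each library left out. Actg2 and Hoxd13 also missed the threshold when every gene with any count was tested (edgeR adjusted p = 0.0639 and 0.0532). Depth limits statements on genes near 0, and 8 libraries limit the relations. The causes of these changes were not tested.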

Other observations

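Immunoglobulin V segments, which plasma cell clones use singly, varied more between the wild-type libraries than other genes. The 38 segments with a mean of at least 1 CPM had a median SD of 0.50 on log2(CPM + 1), against 0.28 for the 4174 genes in the same range of mean CPM. The leading segment of a library held 4.18% to 10.1% of its V segment TPM. It was Iglv1 in libraries 1, 2, 3 and 8, Igkv10-96 in libraries 4 and 5, Igkv1-117 in library 6 and Igkv8-28 in library 7. V segments resemble each other, so reads can be shared between them.

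Ang4, an angiogenin-related antimicrobial of the gut epithelium, lay between 1.97 TPM in library 3 and 42.7 TPM in library 8, a range of 21.7-fold, with libraries 3, 4 and 5 below 4 TPM. Reg3b, an antimicrobial lectin also made by the pancreas, had 19.2 TPM in library 5 and at most 1.05 TPM in the other wild-type libraries.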
